A study of Homo sapiens with 18 samples.

Results

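The RNA response of the cisplatin-resistant ovarian carcinoma line A2780cis, called Acis, was examined across genes by comparing 3 libraries of cells kept 3 h in 200 µM cisplatin with 3 libraries of untreated Acis cells. These 6 libraries are 6 of the 18 samples of the series and were chosen by their labels alone. Acis was derived from the sensitive line A2780 and is grown with a pulse of 1 µM cisplatin every 3 passages, so the untreated cells also had a history of the drug. Cultures were set up in triplicate per condition, and p-values measure the spread between these cultures. The treated cells received the drug in fresh medium, and whether the medium of the untreated cells was changed too is not given in the sources used here. The 6 libraries of A2780, with the same dose and time and the same number of cultures, are used only to show where the response of Acis differs. Peak lists of accessible chromatin from Acis cells of both conditions are used at the starts of the genes.

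Cisplatin binds neighboring guanines and forms DNA adducts at which RNA polymerase II stops. Such lesions are removed by nucleotide excision repair, bypassed by translesion polymerases or, when they join both strands, handled by the Fanconi anemia and homologous recombination pathways. Damaged cells activate p53 and stress kinases, whose targets include the immediate-early genes, short genes whose transcription needs no new protein. RNA measured a few hours after treatment therefore mixes transcripts made before and after the drug was added, and transcripts with a short half-life show a change first.

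Total counts were 4130644 to 4443470 in the control libraries and 4610164 to 4720732 in the cisplatin libraries. Of 23622 genes in the table, 15760 had enough reads for edgeR's expression filter and entered the test. Levels are given as normalized counts, which are counts scaled by TMM, edgeR's default normalization, to the mean library size, and they are not corrected for gene length. Of 11 ovarian and epithelial markers, 3 have a row in the table used here. KRT18 was at 143 ± 9.66 normalized counts in control and 146 ± 2.56 in cisplatin libraries (SD, n = 3), while KRT8 and EPCAM were close to 0. Of 12 markers of immune, endothelial and fibroblast cells, 5 have a row, and their summed level was 12.7 to 28.8 normalized counts in control and 20.7 to 29.5 in cisplatin libraries. In bulk RNA, fewer cells and less RNA per cell cannot be told apart.

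Acis cells responded to cisplatin with many small changes and few large ones. By edgeR's quasi-likelihood test at an adjusted p-value under 0.05, 1474 genes were upregulated, which is 9.35% of the tested genes, and 1962 were downregulated, which is 12.4%. The median change was 1.33-fold among upregulated and 1.21-fold among downregulated genes, and 64.9% of the former and 88.2% of the latter changed by less than 1.5-fold. With at least a 2-fold change required as well, 258 genes (1.64%) were upregulated and 59 genes (0.374%) were downregulated. The cisplatin and control libraries did not overlap in 93.1% of the upregulated and 94.9% of the downregulated genes, against 34.3% of all tested genes. The balance between both directions depends on the scaling. With the total counts as library size, 2346 genes were upregulated and 1411 downregulated, so that 37.6% of the calls were downward instead of 57.1%, and the median log2 change of all tested genes moved from 0.01 to 0.07. DESeq2 called 533 genes upregulated and 1529 downregulated. Control replicates 2 and 3 and cisplatin replicates 1 and 2 differed by less than counting noise (0.964 and 0.793 times it, against 1.01 to 1.41 for the other pairs), and with each of these pairs merged into 1 sample 795 genes were upregulated and 1506 downregulated.

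Of all tested genes, 77.5% were protein-coding and 11.9% were long non-coding RNA (lncRNA) genes, and the median level was 163 normalized counts. Among the upregulated genes, 74.2% were protein-coding and 20.6% were lncRNA genes, and their median level of 160 normalized counts was close to that of all genes. Among the downregulated genes, 93.4% were protein-coding and 3.62% were lncRNA genes, and the median level was 580. Of 938 genes whose higher group mean reached 1000 normalized counts, 28 were upregulated and 509 were downregulated. Changes of 2-fold or more sat at low levels, with a median of 16.6 normalized counts for the upregulated and 19.0 for the downregulated genes, and lncRNA genes made up 46.5% and 37.3% of them. Counts are not corrected for length and power rises with the count, so levels of called genes do not by themselves compare gene classes.

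**Figure D1:**
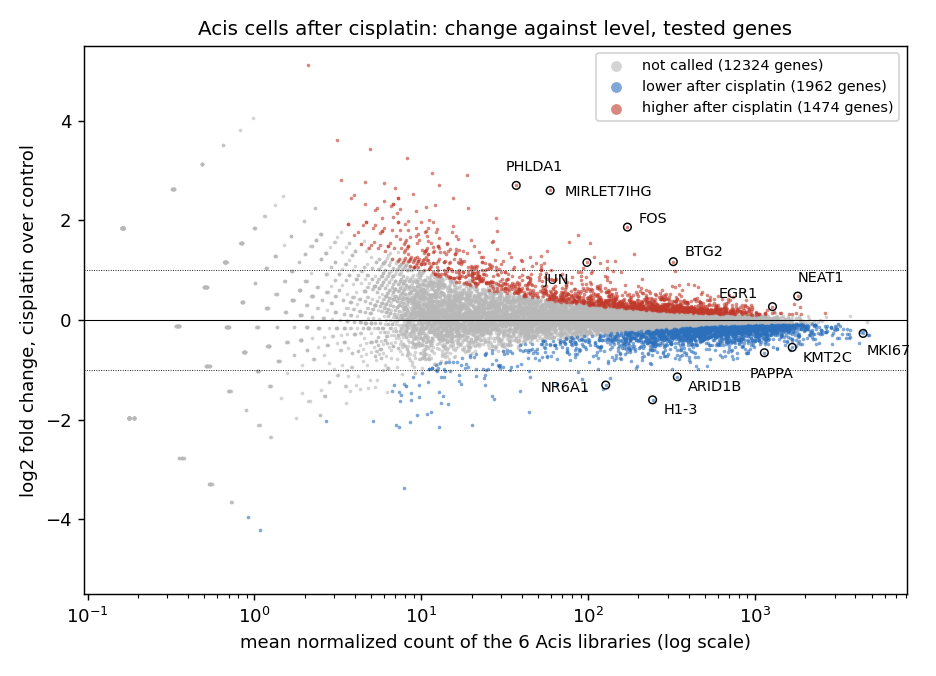
Log2 fold change of cisplatin over control in Acis cells (vertical axis) against the mean normalized count of the 6 Acis libraries (horizontal axis, log scale), 1 point per tested gene. Upregulated (1474) and downregulated (1962) genes are colored, and the downregulated ones lie mostly at high levels and close to 0.

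Among genes that reached a group mean of 50 normalized counts, the largest rises were led by PHLDA1, an early-response gene that encodes a pleckstrin homology-like domain protein. PHLDA1 (ENSG00000139289, chr12:76025447-76031776, GRCh38) had 9.56, 6.39 and 13.7 normalized counts in the 3 control libraries and 76.8, 60.0 and 56.0 in the 3 cisplatin libraries. All cisplatin values lay above all control values, and log2(cisplatin/control), the log2 fold change used throughout, came to 2.70 ± 0.24 (SE, edgeR's quasi-likelihood test, adjusted p = 2.57e-09). MIRLET7IHG, the host transcript of the microRNA let-7i, rose from 15.93, 18.12 and 15.96 to 111, 107 and 86.4 normalized counts, a log2 change of 2.60 ± 0.17. NFKBIZ, an atypical IκB protein of the nucleus, rose from 54.2, 45.8 and 57.0 to 156, 152 and 147 normalized counts, a log2 change of 1.54 ± 0.11. The control and cisplatin libraries of these genes did not overlap. ADM, the vasodilator peptide adrenomedullin, rose from 35.1, 27.7 and 30.8 to 76.8, 78.7 and 89.4 normalized counts (log2 change 1.38). Of the 27 genes that met this rule, the other large rises were FOS (1.87), C18orf32 (1.57), PLK3 (1.33), ZNF425 (1.29), FOSB (1.26) and ADAMTSL4-AS1 (1.26). C18orf32 overlaps a read-through gene, ADAMTSL4-AS1 overlaps MCL1, and MIRLET7IHG, NFKBIZ and ZNF425 overlap another tested gene on the same strand, so their counts are uncertain.

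Genes with high levels rose by smaller factors. The lncRNA NEAT1, the scaffold of nuclear paraspeckles, had 1386, 1598 and 1531 normalized counts in control and 2019, 2184 and 2094 in cisplatin libraries (log2 change 0.48 ± 0.04, adjusted p = 5.9e-09, edgeR's quasi-likelihood test). The groups did not overlap. CCNL1, a cyclin that works with splicing kinases, rose by a log2 change of 0.40, the antisense lncRNA KCNQ1OT1 by 0.33, and BRD2, a bromodomain reader of acetylated histones, by 0.27.

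AP-1 factors are dimers of FOS, JUN, ATF and MAF family proteins that carry early stress signals to their target genes. Of 14 tested AP-1 genes, 9 (64.3%) were upregulated and none was downregulated, against 9.35% and 12.4% of all tested genes. These counts were 9 to 11 and 0 under every alternative run. The median log2 change was 0.45 against 0.01 over all tested genes. FOS had 73.3, 68.2 and 80.9 normalized counts in control and 275, 273 and 261 in cisplatin libraries, a log2 change of 1.87 ± 0.08 (adjusted p = 2.92e-14, edgeR's quasi-likelihood test). JUN rose from 72.2, 58.6 and 51.3 to 131, 135 and 142 normalized counts, a log2 change of 1.16 ± 0.12. FOSB rose from 70.1, 53.3 and 67.3 to 154, 144 and 159 normalized counts (log2 change 1.26). In all 3 genes the cisplatin libraries stood apart from the controls. ATF3 (1.04), MAFF (0.86), FOSL1 (0.65), MAFG (0.46), FOSL2 (0.45) and JUNB (0.41) rose as well, whereas JUND (0.15), MAFK (0.15), BATF2 (0.22), BATF3 (0.45) and JDP2 (-0.15) did not pass the test.

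EGR and NR4A factors, zinc finger and nuclear receptor proteins of the same early wave, were listed with the neuronal early gene ARC. Of these 8 genes, 5 (62.5%) were upregulated (median log2 change 0.49) and none was downregulated. Over all tested genes the shares were 9.35% and 12.4%. ARC had 329, 286 and 278 normalized counts in control and 465, 476 and 536 in cisplatin libraries (log2 change 0.72 ± 0.07, adjusted p = 3.95e-09, edgeR's quasi-likelihood test). EGR3 rose from 300, 301 and 274 to 438, 445 and 439 normalized counts (log2 change 0.60). EGR1 was already at 1198, 1130 and 1136 normalized counts in untreated Acis cells and reached 1380, 1400 and 1395, a log2 change of only 0.27 ± 0.03. The groups of these 3 genes did not overlap. EGR4 (1.36) rose too. NR4A1 (0.22) was called, but not by DESeq2 nor without control replicate 2 or 3 or cisplatin replicate 1 or 3 (0.16 without the last). EGR2 had 403, 384 and 404 normalized counts in control and 364, 335 and 374 in cisplatin libraries, a log2 change of -0.15 that missed the threshold (adjusted p = 0.0684), and passed it with DESeq2's size factors in edgeR and without cisplatin replicate 3.

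The IER, GADD45, BTG and related early genes encode growth arrest, mRNA decay and kinase proteins. Of the 19 tested, 14 (73.7%) were upregulated and none downregulated (median log2 change 0.33), against 9.35% and 12.4% of all tested genes. BTG2, an antiproliferative cofactor of mRNA deadenylation and a p53 target, had 197, 201 and 200 normalized counts in control and 451, 441 and 454 in cisplatin libraries. The groups were far apart, with a log2 change of 1.17 ± 0.06 (adjusted p = 1.07e-13, edgeR's quasi-likelihood test). PLK3, a stress-activated polo-like kinase, rose from 121, 83.1 and 117 to 283, 242 and 279 normalized counts (log2 change 1.33). BTG1 (1.14), TRIB1 (0.68), GADD45A (0.62), PPP1R15A (0.51), IER2 (0.50), IER5 (0.42) and IER3 (0.40) rose by less, while CSRNP1 (0.16), SIK1 (0.07), BTG3 (0.16), ZFP36L1 (-0.04) and RGS2 (-0.10) did not pass.

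Feedback inhibitors of MAP kinase signaling moved both ways. Of 14 tested genes, 3 (21.4%) were upregulated and 5 (35.7%) downregulated, against 9.35% and 12.4% of all tested genes. All 3 that rose encode dual-specificity phosphatases that inactivate MAP kinases. DUSP1 rose from 65.9, 69.3 and 76.4 to 149, 129 and 141 normalized counts (log2 change 0.99 ± 0.11, adjusted p = 1.6e-07, edgeR's quasi-likelihood test), DUSP5 by 0.63 and DUSP2 by 0.42. The control and cisplatin libraries of DUSP1 did not overlap. The 5 downregulated members were the receptor kinase inhibitors SPRED2 (-0.35), SPRY2 (-0.27), SPRY1 (-0.24) and SPRY4 (-0.18), and DUSP6 (-0.12), the dual-specificity phosphatase of ERK, whose call was lost with the total counts as library size. DUSP7, DUSP8, DUSP14, DUSP16, SPRED1 and SPRED3 did not pass.

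Other early-response lists moved less. KLF zinc finger factors had 4 upregulated and 1 downregulated of 11, NF-κB factors and targets 3 and 1 of 13, the MYC and MAX network 3 and 2 of 11, ID, SMAD and HES feedback genes 5 and 1 of 10, and circadian clock genes 2 and 2 of 16. Over all tested genes the shares were 9.35% and 12.4%, and the circadian genes, with 12.5% for each, lay close to them. KLF9 (0.63), HES1 (0.72), the MAX partner MXD1 (0.72) and NFKBIA (0.29), the inhibitor that retains NF-κB in the cytoplasm, were among the upregulated ones. Targets of SRF and YAP, which respond to actin and cell contact, had none upregulated and 3 downregulated of 16, namely VCL (-0.18), LATS2 (-0.28) and ACTB (-0.14). The call for ACTB was lost with the total counts as library size.

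**Figure D2:**
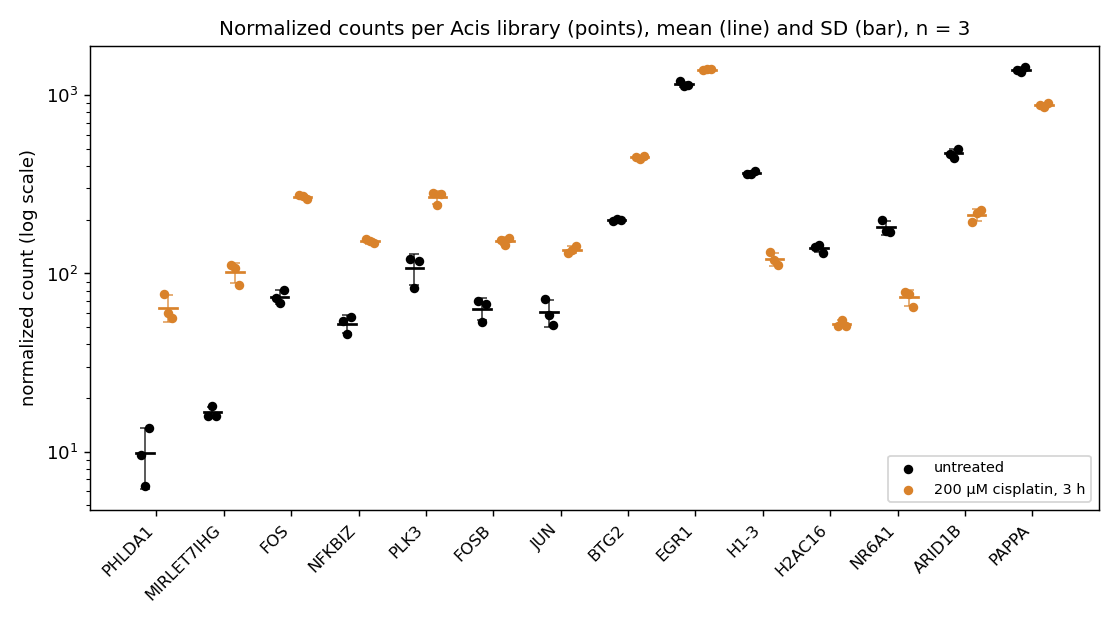
Normalized counts (log scale) of 14 genes in the 3 untreated and 3 cisplatin-treated Acis libraries, 1 point per library, with a line at the mean and a bar for the SD. The points of both conditions stay apart in every gene shown, from PHLDA1, which rose most, to EGR1, which rose least, and to the 5 genes that fell.

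p53 activates genes of cell cycle arrest, apoptosis and repair. Of 27 tested p53 targets, 15 (55.6%) were upregulated and 1 (3.70%) was downregulated, against 9.35% and 12.4% of all tested genes. The counts were 12 to 17 and 1 under every alternative. The median log2 change was 0.23 against 0.01 over all tested genes. CDKN1A, the cyclin-dependent kinase inhibitor p21, had 153, 155 and 149 normalized counts in control and 255, 253 and 299 in cisplatin libraries (log2 change 0.82 ± 0.08, adjusted p = 9.56e-09, edgeR's quasi-likelihood test). The groups did not overlap. GDF15, a secreted stress cytokine, rose by 0.97, and the arrest and metabolism genes SESN1 (0.49), TIGAR (0.42) and ZMAT3 (0.29) by less. MDM2, the ubiquitin ligase that degrades p53, rose by 0.15 (not called by DESeq2 or without control replicate 1, with 0.11), and the phosphatase PPM1D, another brake on p53, was the member that fell (-0.21). FAS (-0.05), TNFRSF10B (-0.01) and BAX (0.11) did not pass, and TP53INP1 had a count of 0 in all 6 libraries. BTG2 and PLK3 belong to this list as well as to the early genes.

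In the BCL2 family, the regulators of mitochondrial apoptosis, 4 of 14 tested genes (28.6%) were upregulated and 1 (7.14%) was downregulated. Over all tested genes the shares were 9.35% and 12.4%. The 4 upregulated genes were the BH3-only death activators PMAIP1 (0.96), BBC3 (0.74) and BCL2L11 (0.56), and the survival protein MCL1 (0.14). PMAIP1 had 66.9, 54.4 and 63.8 normalized counts in control and 131, 118 and 110 in cisplatin libraries, with no overlap. BCL2L1, the gene of the survival protein BCL-XL, fell by 0.17 on the log2 scale. The calls for MCL1, BCL2L11 and BCL2L1 were not made by DESeq2, that for BCL2L11 not without control replicate 1 (0.39), and that for BCL2L1 was lost whenever 1 of the 6 libraries was left out.

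The integrated stress and unfolded protein responses adjust translation and protein folding, and 9 of their 21 tested genes were upregulated and 2 downregulated. ASNS, asparagine synthetase, rose by 0.93 with 23.4, 17.1 and 18.2 normalized counts in control and 52.8, 36.4 and 22.6 in cisplatin libraries. Treated replicate 3 lay just below the highest control, so the groups overlapped, and without cisplatin replicate 1 the change was 0.59 and not called. DDIT4 (0.50) and PPP1R15A (0.51) rose, whereas ATF4 (-0.04), DDIT3 (0.17), XBP1 (0.07) and HSPA5 (-0.07) did not pass the test. In the heat shock list, 3 of 16 (18.8%) were upregulated, among them HSPA1B (0.30) and DNAJB1 (0.18), and 2 (12.5%) were downregulated. Over all tested genes the shares were 9.35% and 12.4%. Of 26 glutathione, NRF2 and metallothionein genes, 2 (7.69%, below the share of all tested genes) were upregulated, the zinc exporter SLC30A1 (0.30) and OSGIN1 (0.50), and none was downregulated. NQO1 (0.12), GCLM (0.18), HMOX1 (0.21) and GSTP1 (0.02) did not pass.

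**Figure D3:**
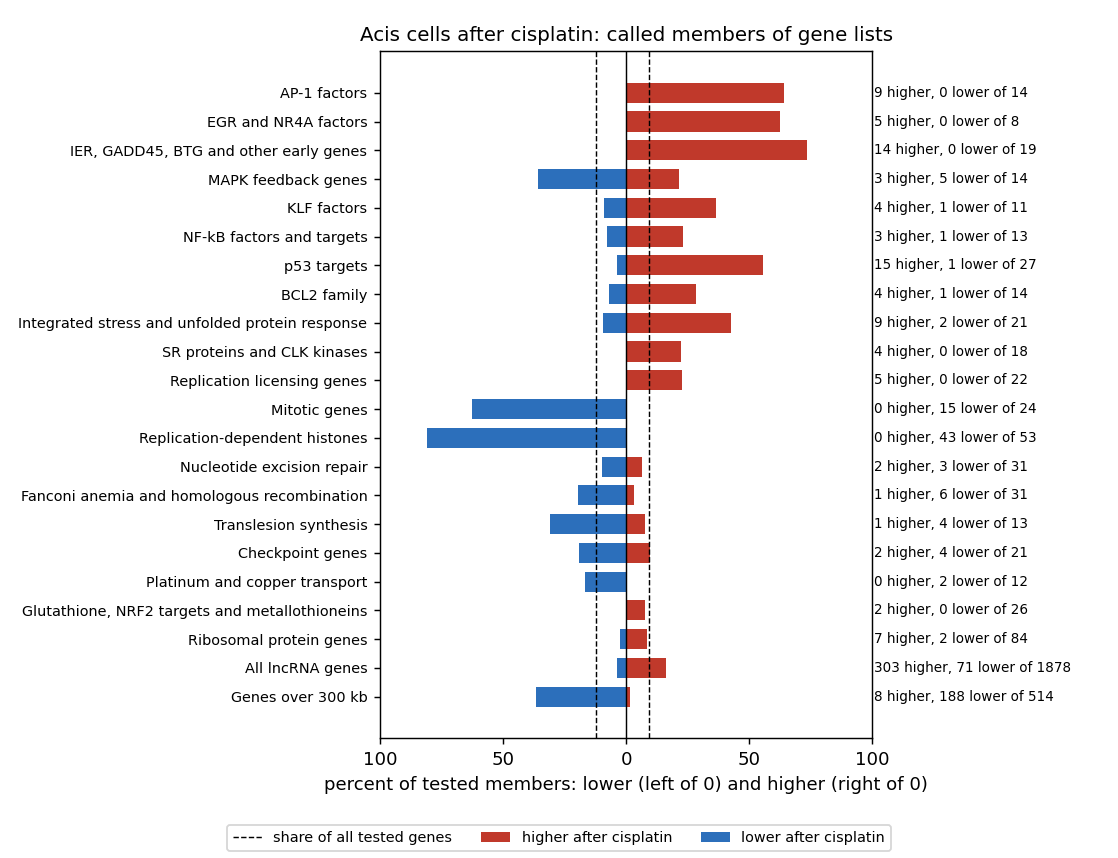
Share of tested members called higher (right of 0) and lower (left of 0) after cisplatin in Acis cells for 22 gene lists, with the counts beside each bar. Dashed lines mark the shares of all tested genes, 9.35% higher and 12.4% lower, and replication-dependent histones (43 of 53 lower) and early genes (14 of 19 higher) lie farthest from them.

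The promoters of the tested genes were read from RefSeq on GRCh38.p14, as windows from 250 bases before to 50 after the start. A window was found for 10734 tested genes. Among the 37 upregulated genes of the early-response lists with a window, 27.0% held TATAAA and 8.11% held the cyclic AMP response element TGACGTCA, on either strand. Over all 10734 windows these shares were 5.52% and 3.37%, and in the 73 windows of early-list genes not called higher 8.22% and 5.48%. The response element was thus in only 3 of the 37 windows. It was also in 14.6% of the 41 windows of downregulated histone genes, H2AC16 among them, and in that of NR6A1, which fell. The AP-1 site TGANTCA was held by 2.70% of the early windows and 4.11% of all, and the CArG box, the site of SRF, by 2.70% and 1.02%. Each of these early shares is 1 gene. A match describes letters and is no measured binding, and motifs were not tested for enrichment. The fragments below show these letters, in capitals, in early genes that rose in Acis cells, 5′ to 3′ on the strand of the gene.
FOS, TATAAA, chr14:75278775-75278820, plus strand: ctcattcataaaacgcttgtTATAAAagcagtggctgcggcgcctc
FOSB, TATAAA, chr19:45467946-45467991, plus strand: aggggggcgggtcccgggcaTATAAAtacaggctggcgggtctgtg
EGR1, pair of CArG boxes, chr5:138465354-138465425, plus strand: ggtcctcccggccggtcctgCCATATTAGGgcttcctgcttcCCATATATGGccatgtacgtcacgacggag
DUSP1, TGACGTCA and TATAAA, chr5:172771200-172771340, minus strand: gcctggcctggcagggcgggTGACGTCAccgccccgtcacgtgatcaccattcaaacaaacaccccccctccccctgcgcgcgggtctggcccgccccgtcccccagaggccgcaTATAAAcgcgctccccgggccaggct
PPP1R15A, TGACGTCA and TATAAA, chr19:48872343-48872416, plus strand: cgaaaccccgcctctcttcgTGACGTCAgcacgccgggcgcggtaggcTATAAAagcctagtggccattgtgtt
MAFF, TGACGTCA, chr22:38201920-38201967, plus strand: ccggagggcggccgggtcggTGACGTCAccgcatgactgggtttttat

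The replication-dependent histone genes were the list with the highest share of falls. They are short, carry no introns as a rule, are transcribed in S phase to supply new chromatin, and their mRNAs end in a stem-loop in place of a poly(A) tail. Of 53 tested histone genes, 43 (81.1%) were downregulated and none was upregulated, against 12.4% and 9.35% of all tested genes. The median log2 change was -0.52, and 38 to 44 were downregulated and none upregulated under every alternative. H1-3, a linker histone (ENSG00000124575), had 363, 360 and 375 normalized counts in control and 131, 119 and 111 in cisplatin libraries. The groups were far apart, with a log2 change of -1.60 ± 0.08 (adjusted p = 1.38e-13, edgeR's quasi-likelihood test). H2AC16 fell from 140, 144 and 131 to 50.9, 55.1 and 51.1 normalized counts, a log2 change of -1.40 ± 0.10. H3C11 (-1.39), H3C1 (-1.28), H4C9 (-1.17), H3C8 (-1.16) and H2AC15 (-1.05) fell by more than 2-fold too. These 7 histone genes made up most of the 9 genes that met the rule for large falls. All classes took part, with 4 of 5 H1, 10 of 12 H2A, 16 of 17 H2B, 7 of 9 H3 and 6 of 10 H4 genes downregulated. Of all counts, these genes took 0.223% ± 0.00395 in control and 0.157% ± 0.00548 in cisplatin libraries (SD, n = 3), a difference with an exact two-sided permutation p of 0.1, the smallest that 3 against 3 libraries can give. Histone genes are near-identical copies of each other, and reads that fit several of them may be lost or split, so values of single genes are less certain than the group's.

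Of 41 downregulated histone genes with a window, 87.8% held CCAAT and 63.4% held TATAAA, against 37.0% and 5.52% of all windows. Histone genes that were not called, such as H2AC21, H2AC14, H2BC3 and H3C6, held both too, so these letters do not set the genes that fell apart from other histone genes. The fragments come from the pair of histone genes that fell most, with CCAAT and TATAAA of H1-3 and the 3 CCAAT of H2AC16 in capitals (ATTGG is CCAAT read on the other strand), and TATAAA was not found in the window of H2AC16.
H1-3, chr6:26234992-26235062, minus strand: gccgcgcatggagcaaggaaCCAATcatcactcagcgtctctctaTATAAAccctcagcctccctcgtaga
H2AC16, chr6:27865165-27865273, plus strand: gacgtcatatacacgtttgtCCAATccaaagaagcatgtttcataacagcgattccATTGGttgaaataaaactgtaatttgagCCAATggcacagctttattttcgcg

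Most genes of mitosis fell, but by little. Of 24 tested mitotic genes, 15 (62.5%) were downregulated and none was upregulated, against 12.4% and 9.35% of all tested genes. The median log2 change was -0.16, and 12 to 17 were downregulated under every alternative. MKI67, the proliferation marker Ki-67, had 4937, 4706 and 4919 normalized counts in control and 3942, 3945 and 4204 in cisplatin libraries (log2 change -0.27 ± 0.03, adjusted p = 1.2e-07, edgeR's quasi-likelihood test). The groups did not overlap. CENPE (-0.35), CENPF (-0.29), PLK1 (-0.26), ASPM (-0.26), AURKA (-0.23), TPX2 (-0.19) and CDC20 (-0.17), which build the spindle and the kinetochore or drive mitotic exit, fell as well. CDK1 (0.02), BIRC5 (-0.01) and CCNB1 (-0.08) did not pass. Among 22 genes of replication licensing, 5 (22.7%) were upregulated and none was downregulated, against 9.35% and 12.4% of all tested genes. The 5 were CCNE2 (0.38), the cyclin of S phase entry, ORC6 (0.21), and GINS2 (0.21), GINS3 (0.21) and GINS4 (0.17) of the replicative helicase. DESeq2 called 1 of these genes, and the calls for the 3 GINS genes were also lost without 1 or more single libraries. MCM2 to MCM7 had log2 changes between -0.04 and 0.03.

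Besides histone genes, only the long genes ARID1B and NR6A1 met the rule for large falls, which asks for 50 normalized counts and a symbol. Large falls in general were not in long genes. Of all 59 genes lower by 2-fold, 64.4% had a single exon, 37.3% were lncRNA genes and 4 were over 300 kb. ARID1B, a subunit of the SWI/SNF chromatin remodeler, had 467, 447 and 499 normalized counts in control and 195, 218 and 228 in cisplatin libraries (log2 change -1.14 ± 0.07, adjusted p = 2.26e-12, edgeR's quasi-likelihood test). NR6A1, an orphan nuclear receptor of germ and embryonic cells, fell from 201, 173 and 171 to 78.7, 76.8 and 64.8 normalized counts, a log2 change of -1.30 ± 0.11. In both genes every cisplatin library lay below every control library. Among genes with at least 1000 normalized counts, the falls with the smallest adjusted p-values were PAPPA, a protease of insulin-like growth factor binding proteins (-0.65), the histone methyltransferases KMT2C (-0.55) and ASH1L (-0.49), MDN1, an ATPase of ribosome assembly (-0.48), and the remodeler CHD7 (-0.57). KMT2C had 1996, 1928 and 2029 normalized counts in control and 1364, 1341 and 1369 in cisplatin libraries, and PAPPA had 1393, 1346 and 1439 against 887, 863 and 900. Neither overlapped.

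Gene length, from the first to the last annotated base, differed between rises and falls among protein-coding genes other than histones. Under 3 kb, 11.2% of 410 genes were upregulated and 1.95% downregulated, and from 3 to 10 kb the shares were 17.3% and 1.69% of 1837. From 30 to 100 kb they were 5.29% and 14.2% of 4081 genes. From 100 to 300 kb only 1.63% of 1961 genes were upregulated and 45.4% were downregulated, and over 300 kb 0.441% and 39.9% of 454. The median log2 change went from 0.06 under 3 kb to -0.18 from 100 to 300 kb and -0.26 over 300 kb. The longest genes of any type, 514 over 300 kb, had 8 upregulated and 188 downregulated, with 155 to 197 downregulated under every alternative. They took 3.09% ± 0.0545 of all counts in control and 2.59% ± 0.0333 in cisplatin libraries (SD, n = 3, exact two-sided permutation p of 0.1, the smallest possible). AKAP13, a kinase anchor protein, SYNE2, a nuclear envelope spectrin, and MACF1, a linker of actin and microtubules, fell by 0.77, 0.61 and 0.45 on the log2 scale. The lncRNA genes did not follow the same steps. From 100 to 300 kb, 10.6% of 141 lncRNA genes were upregulated and 3.55% downregulated, and over 300 kb 10.2% and 11.9% of 59. Their levels were lower, with a median of 18.9 normalized counts from 100 to 300 kb against 320 in protein-coding genes, and whether this sets their share of calls was not tested.

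**Figure D4:**
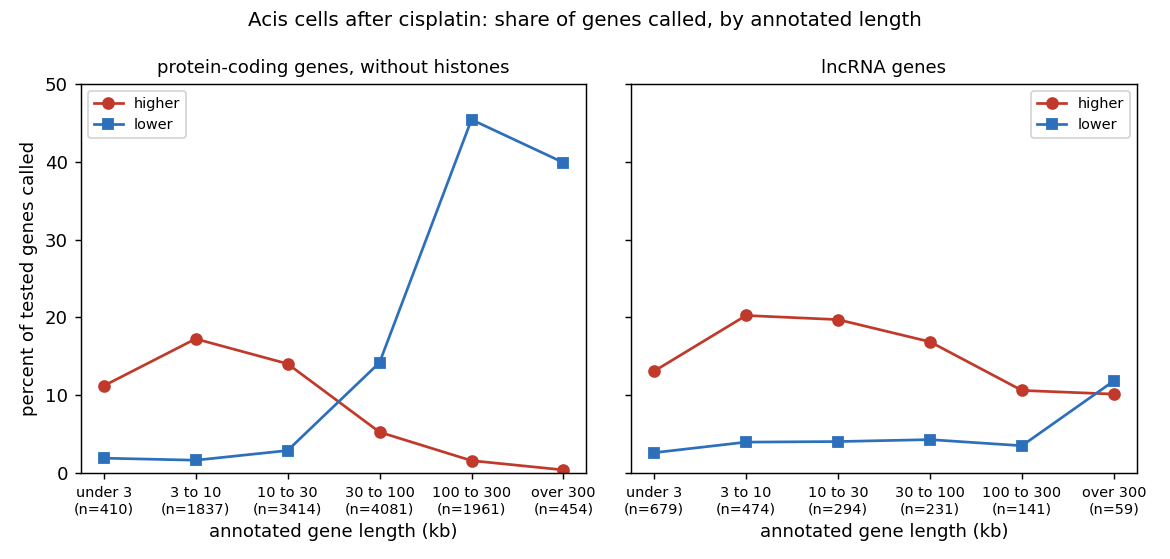
Percent of tested genes called higher and lower after cisplatin in Acis cells, by annotated gene length in kb, for protein-coding genes without histones (left) and lncRNA genes (right). In protein-coding genes the share called lower goes from 1.95% under 3 kb to 45.4% between 100 and 300 kb, while in lncRNA genes it stays at 11.9% or less.

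Of 31 tested nucleotide excision repair genes, 2 (6.45%) were upregulated and 3 (9.68%) downregulated, shares close to the 9.35% and 12.4% of all tested genes, and the split was 3 and 0 with the total counts as library size. DDB2, the damage sensor of global repair and a p53 target, had 270, 228 and 233 normalized counts in control and 330, 333 and 320 in cisplatin libraries (log2 change 0.43 ± 0.07, adjusted p = 2.25e-05, edgeR's quasi-likelihood test). The groups did not overlap. PCNA, the sliding clamp, had a log2 change of 0.13 whose call was lost with DESeq2 and whenever 1 of the 6 Acis libraries was left out. The falls of UVSSA (-0.18), LIG1 (-0.17) and USP7 (-0.15) were lost with the total counts as library size, and those of UVSSA and LIG1 also when 1 of 5 and 1 of 3 libraries was left out. The damage recognition and incision genes XPC (0.05), XPA (0.24), ERCC1 (-0.14), ERCC4 (0.04), ERCC5 (0.04), ERCC6 (0.11) and ERCC8 (-0.03) did not pass the test.

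Genes for crosslinks and bypass had more falls than rises, a balance that turned for translesion and checkpoint genes with the total counts as library size. Shares upregulated and downregulated were 3.23% and 19.4% for crosslink, 7.69% and 30.8% for translesion and 9.52% and 19.0% for checkpoint genes. Those of all tested genes were 9.35% and 12.4%. Of 31 Fanconi anemia and homologous recombination genes, 1 was upregulated (FANCB, 0.32) and 6 were downregulated, among them SLX4 (-0.32), BRIP1 (-0.27) and BRCA1 (-0.17), and the split was 3 and 4 with the total counts as library size. BRCA1 had 917, 911 and 934 normalized counts in control and 797, 805 and 856 in cisplatin libraries, with no overlap. Of 13 translesion synthesis genes, 1 was upregulated and 4 were downregulated, led by REV1 (-0.34) and REV3L (-0.32), the catalytic subunit of polymerase zeta, and the split was 3 and 2 with total counts. Of 21 checkpoint genes, 2 were upregulated (RAD1, 0.42, and RNF168, 0.14) and 4 downregulated (TP53BP1, -0.26, MDC1, -0.25, ATR, -0.19, and ATM, -0.13), and the split was 5 and 3 with total counts. The calls for FANCB, RNF168 and ATM were lost when 1 of 2 to 4 libraries was left out. Of 6 mismatch repair genes, MSH3 (-0.21) and MLH3 (-0.17) were downregulated and were called neither by DESeq2 nor with total counts, nor without cisplatin replicate 2. Over these lists, the 19 downregulated genes had a median length of 98821 bp, the 6 upregulated ones 29870 bp and the 77 others 43039 bp.

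Of 12 genes of platinum and copper transport, none was upregulated and 2 (16.7%) were downregulated, the exporters ABCC1 (-0.38) and ABCC4 (-0.22). Over all tested genes, 9.35% were upregulated and 12.4% downregulated, so the share of falls in this list is close to that of all genes. ABCC1 had 1298, 1238 and 1234 normalized counts in control and 944, 947 and 1002 in cisplatin libraries, with no overlap. SLC31A1, the copper importer that also takes up platinum drugs, had a log2 change of 0.13, and the copper pumps ATP7A and ATP7B of -0.12 and -0.27, and none of these passed. The split for the list was 2 and 2 with the total counts as library size.

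Regulators of transcription elongation moved both ways, with 4 upregulated and 4 downregulated of 22 (18.2% each, against 9.35% and 12.4% of all tested genes). HEXIM1, the inhibitor of the elongation kinase P-TEFb, had 545, 558 and 531 normalized counts in control and 724, 722 and 747 in cisplatin libraries (log2 change 0.42 ± 0.04, adjusted p = 2.53e-08, edgeR's quasi-likelihood test), and the groups did not overlap. BRD2 (0.27) and the cyclin T genes CCNT1 (0.21) and CCNT2 (0.33) rose, while ELL (-0.54) and AFF1 (-0.22) were among those that fell. Of 18 SR splicing proteins and CLK kinases, 4 (22.2%) were upregulated, among them SRSF6 (0.31) and CLK1 (0.29), and none was downregulated. The calls for SRSF7 and SRSF10 were lost with DESeq2, with its size factors in edgeR, without a filter on low counts and with the closest replicates merged. Both calls were also lost without control replicate 1 or cisplatin replicate 1 or 2. Of the sterol genes 3 were upregulated and 1 was downregulated of 16, and of 8 regulators of epithelial to mesenchymal transition SNAI1 rose (1.14) and CDH2 (-0.48, not called without control replicate 1 or cisplatin replicate 1 or 2), ZEB1 (-0.29) and VIM (-0.15) fell.

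Of 84 tested ribosomal protein genes, 7 (8.33%) were upregulated and 2 (2.38%) downregulated, with a median log2 change of -0.03. Over all tested genes the shares were 9.35% and 12.4%. RPS29 had 324, 322 and 344 normalized counts in control and 535, 533 and 544 in cisplatin libraries (log2 change 0.71 ± 0.05, adjusted p = 6.5e-11, edgeR's quasi-likelihood test), which do not overlap. RPS27L, a p53-regulated paralog, rose by 0.57 and RPL27A by 0.27. Of 21 mitochondrially encoded genes, 4 fell by 0.14 to 0.16 on the log2 scale (MT-CYB, MT-ND4, MT-ND5 and MT-CO1), and none of the 21 was called with the total counts as library size. Of 396 tested ZNF genes, 58 were upregulated and 32 downregulated, while DESeq2 called 18 and 21.

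The lncRNA genes rose more often than they fell. Of 1878 tested lncRNA genes, 303 were upregulated and 71 downregulated, with a median log2 change of 0.28 against 0.00 over protein-coding genes, and their share of all counts was 1.86% ± 0.0670 in control and 2.15% ± 0.0385 in cisplatin libraries (SD, n = 3, exact two-sided permutation p of 0.1, the smallest possible). Of 646 with an antisense or divergent name, 111 (17.2%) were upregulated and 13 (2.01%) downregulated, close to the 16.1% and 3.78% of all tested lncRNA genes. NIPBL-DT, which starts head to head with the cohesin loader gene NIPBL, had 80.7, 88.5 and 86.6 normalized counts in control and 199, 173 and 152 in cisplatin libraries (log2 change 1.04 ± 0.10, adjusted p = 2.81e-08, edgeR's quasi-likelihood test). The groups did not overlap, while NIPBL itself fell by 0.30 on the log2 scale. WAPL-DT rose by 1.14, and its partner WAPL, a cohesin release factor, fell by 0.22. Of 355 lncRNA genes that start within 1000 bp of a gene on the other strand and face away from it, 18.9% were upregulated and 1.41% downregulated, against 15.5% and 4.33% of the other 1523. The 61 tested partners of the upregulated ones had a median log2 change of 0.04, with 9 upregulated and 11 downregulated. Of 53 small RNA host genes, 14 were upregulated, among them SNHG5 (0.50) and MIR23AHG (0.60), and 4 downregulated, among them MIR99AHG (-0.71) and MIRLET7BHG (-0.57). Of 96 short non-coding RNA genes, 3 (3.1%) were upregulated and 10 (10.4%) downregulated. Over all tested genes the shares were 9.35% and 12.4%. Short non-coding RNA genes have many near-identical copies and low counts.

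Accessible chromatin lay at most starts of the tested protein-coding genes, whether they changed or not. Each of the deposited Acis peak lists is a single list, from 3 control and 2 cisplatin replicates, so their difference was not tested, and exact 95% binomial intervals cover counting only. A peak within 500 bp of the annotated start was listed for 73.2% (70.5 to 75.8) of the upregulated and 68.8% (66.7 to 71.0) of the downregulated protein-coding genes in the control list, and for 67.0% of all tested ones. In the cisplatin list the shares were 77.3%, 73.4% and 71.0%. For lncRNA genes in the control list they were 52.1% of the upregulated, 32.4% of the downregulated and 49.1% of all tested. Of the 43 downregulated histone genes, 40 had a peak in the control list and 41 in the cisplatin list. Of the 48 upregulated early-response genes, 35 had a peak in both lists, 6 in the cisplatin list alone and none in the control list alone. Of all 12197 tested protein-coding genes with an annotated start, 649 had one in the cisplatin list alone and 163 in the control list alone. With a -log10 q of at least 20, each list held 35 of the 48. PHLDA1, which is in none of the early-response lists, had a peak in the cisplatin list alone, at chr12:76031536-76032466. This peak was enriched 8.55-fold over its surroundings, with 27.3 as the -log10 of its q-value. The start of FOS had a peak in both lists, with fold enrichments of 10.9 in control and 10.5 in cisplatin, that of JUN 22.9 and 24.4, that of EGR1 7.41 and 8.51, and that of H1-3 12.2 and 9.88. Starts of CDKN1A, SNAI1, KMT2C and ARID1B, which are the outermost annotated ones, had a peak in neither list.

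Where the response of Acis differed from that of A2780, it was most often the smaller one. By the interaction test, 2113 genes (13.4% of those tested) had a more positive cisplatin effect in Acis and 863 (5.48%) had a more negative one, and with the total counts as library size these numbers were 1463 and 1572. Of the 3436 genes called in Acis, 982 differed in their change from A2780. The change was smaller in Acis in 602 of them, larger with the same sign in 75, and of opposite sign in 305.

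The early genes changed less in Acis. JUN rose by 1.16 in Acis and by 3.72 in A2780, a difference of -2.56 (adjusted p = 1.1e-07, interaction in edgeR's quasi-likelihood test). FOS rose by 1.87 and 3.49, a difference of -1.62, and EGR1 by 0.27 and 1.84, a difference of -1.57. Of the AP-1 genes, 7 of 14 had a more negative effect in Acis and none a more positive one. The same held for 8 of 8 EGR and NR4A genes with ARC and 12 of 19 IER, GADD45 and BTG genes. Over all tested genes, 5.48% had a more negative and 13.4% a more positive effect. The median changes of the 3 lists were 0.45, 0.49 and 0.33 in Acis and 0.95, 1.81 and 0.85 in A2780.

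The study followed 7 genes by real-time PCR in other cells, namely embryonic kidney, A549 lung and U2OS bone cells. It reports that cisplatin raised all but OSGIN1 in additional lines. The values given here are RNA-seq counts of Acis and A2780, not PCR. The 7 genes were chosen on these same libraries. They came from genes that cisplatin raised in A2780 and that were higher in untreated Acis than in untreated A2780 cells. That choice favors a smaller effect in Acis, so the direction of their difference is no independent result. The effect of cisplatin was more negative in Acis than in A2780 in all 7, and 5 rose in Acis while TBR1 fell. SNAI1, a repressor of epithelial genes, had 83.9, 60.7 and 75.2 normalized counts in untreated and 173, 166 and 145 in treated Acis cells, a log2 change of 1.14 against 3.13 in A2780. MYLIP, the ubiquitin ligase of the LDL receptor, rose from 88.2, 107 and 88.9 to 171, 183 and 210 normalized counts, with log2 changes of 0.99 in Acis and 2.75 in A2780. In both genes the treated Acis libraries lay above the untreated ones. ARC rose by 0.72 and 2.09, OSGIN1 by 0.50 and 1.22, and RHOV by 0.38 and 1.13. The call for RHOV in Acis was not made by DESeq2 nor without control replicate 1 or 3 or cisplatin replicate 1 or 3, and its log2 change was 0.22 without control replicate 3. TBR1, a neuronal T-box factor, fell by 0.14 in Acis from 1146, 1135 and 1164 to 1058, 1032 and 1033 normalized counts, a call lost with DESeq2 and with total counts, and rose by 1.51 in A2780, where its mean was 2.61 normalized counts without and 7.72 with the drug.

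The median log2 change of the p53 targets was 0.23 in both lines. Of the 27 targets, 3 had a more positive effect in Acis and 3 a more negative one. Over all tested genes, 13.4% had a more positive and 5.48% a more negative effect in Acis. CDKN1A rose by 0.82 in Acis and 0.85 in A2780 and BTG2 by 1.17 and 1.37, and neither difference passed the test. ZMAT3 had 287, 297 and 294 normalized counts in untreated and 373, 350 and 351 in treated Acis cells, a rise of 0.29, while it fell by 0.56 in A2780. MDM2 rose by 0.15 in Acis and fell by 0.22 in A2780. These genes belong to 135 that passed the test in both lines with opposite signs, of which 119 rose in Acis and fell in A2780. That count was made with TMM scaling in edgeR only, and DESeq2 did not call MDM2 in Acis. The histone genes fell in both lines, with a median of -0.52 in Acis and -0.34 in A2780, and 13 of 53 had a more negative effect in Acis, while none had a more positive one. Ribosomal protein genes had medians of -0.03 and 0.22, and 46 of 84 had a more negative effect in Acis.

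A few genes responded more in Acis. PHLDA1 rose by 2.70 against 1.51 in A2780, a difference of 1.20 ± 0.31 (adjusted p = 0.00803, interaction in edgeR's quasi-likelihood test), which missed the threshold without control replicate 2, with a value of 0.96. NFKBIZ rose by 1.54 and 1.00, a difference of 0.54, and ADM by 1.38 and 0.83, a difference of 0.55 that was not called by DESeq2, with the total counts as library size, or without control replicate 2 (0.47) or 3 (0.55) or cisplatin replicate 3 (0.48). NR6A1 fell by 1.30 in Acis and by 0.37 in A2780, a difference of -0.93 (adjusted p = 5.31e-06), from means of 181 ± 16.7 normalized counts in untreated Acis and 1019 ± 44.7 in untreated A2780 cells (SD, n = 3). Chosen after their values were seen, the transcription factor genes GLI2 (-0.97 and -0.71) and SALL4 (-0.66 and -0.35) also fell further in Acis. Repair genes differed the other way, with smaller falls in Acis. A more positive effect in Acis was called for 11 of 31 Fanconi anemia and homologous recombination genes and 7 of 13 translesion genes. Over all tested genes that share was 13.4%. The median log2 changes of these lists were -0.03 and 0.02 in Acis and -0.25 and -0.13 in A2780. ATR fell by 0.19 in Acis and by 0.73 in A2780, and REV3L by 0.32 and 0.80.

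**Figure D5:**
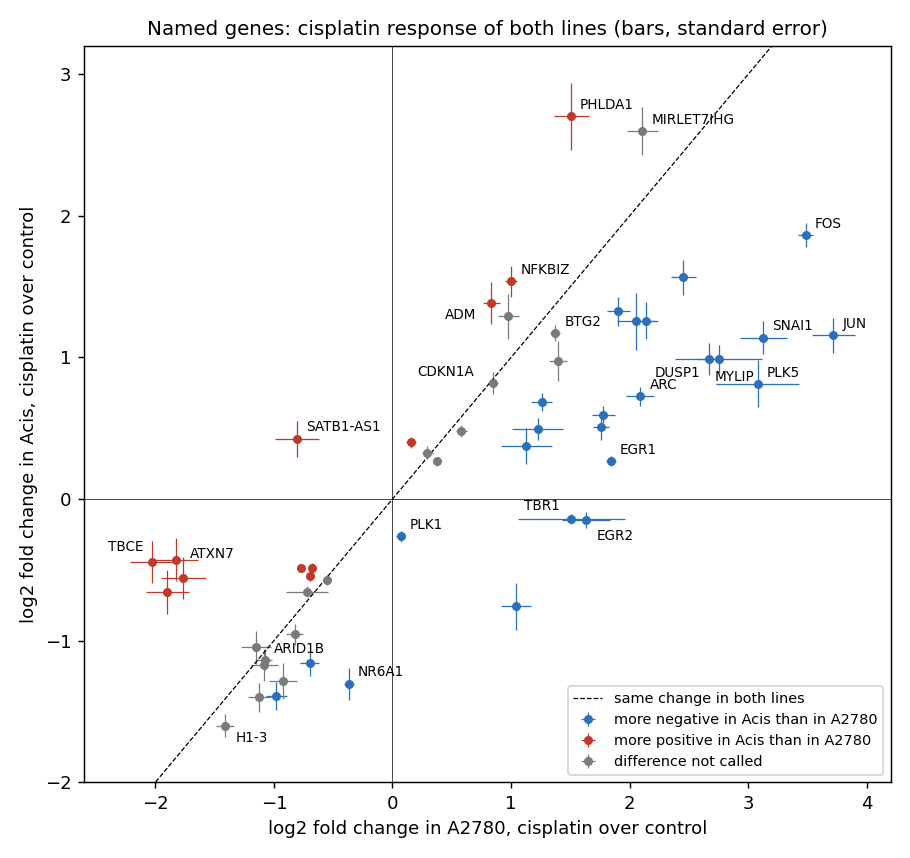
Log2 fold change of cisplatin over control in Acis (vertical axis) against that in A2780 (horizontal axis) for the named genes, with standard errors as bars and colors for the interaction test. JUN, FOS, EGR1 and the real-time PCR genes lie below the dashed line of equal change, and PHLDA1, NFKBIZ and ADM lie above it.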

How the data were processed

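Raw counts per gene of 12 RNA-seq libraries were deposited by the authors, made from ribosomal RNA-depleted stranded libraries with STAR 2.7.3, duplicate removal with Picard and HTSeq 0.11.1 in reverse strand mode. Peaks carry a fold enrichment and a -log10 q-value that the authors computed with MACS2 after Bowtie2 2.4.1 alignment. Peaks overlapping between replicates were kept, and depth per list is unknown.

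Counts were fitted with edgeR 4.0.16 in R 4.3.3 (TMM, filterByExpr, quasi-likelihood test, Benjamini-Hochberg over 15760 genes) as 4 group means over 12 libraries with 8 residual degrees of freedom, so that A2780 libraries share in the estimate of the spread. The interaction is the Acis effect minus that of A2780. DESeq2 1.42.0, other scalings and filters, and left-out libraries were alternatives. The fit was tested on simulated data. Shares of counts used an exact permutation test (scipy 1.17.1). Gene positions and types came from GENCODE 44 (GRCh38), which holds 23513 of 23622 identifiers, and promoters from RefSeq (GRCh38.p14). Figures were drawn with matplotlib 3.10.9.

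Named genes are the largest 10 rises and falls with at least 50 normalized counts, 2-fold change and no overlap, the 5 most significant members of each list, the 5 rises and falls with the smallest adjusted p among genes of at least 1000 normalized counts, the 5 largest differences from A2780 in each direction, and the 7 genes of the real-time PCR. Members, lists and tests were chosen with earlier results of these data known. Other list members given with values were named after these were seen. Replicate pairs closer than counting noise were kept apart, since the labels make them separate samples, and merged in an alternative.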

Additional observations from a re-analysis of the deposited data

Results flagged for a closer look

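Of 44 genes named by size, abundance or real-time PCR, 31 had a cisplatin effect that differed between Acis and A2780 by the interaction test, 19 more negative and 12 more positive in Acis. Some of the 44 were chosen for their difference from A2780, and the real-time PCR genes partly for their rise in A2780, so this share is raised by the choice. Values are differences of log2 fold changes, Acis minus A2780. Among early and stress genes the difference was -2.56 for JUN, -1.99 for SNAI1, -1.78 for EGR2, -1.62 for FOS, -1.57 for EGR1, -1.37 for ARC, -0.88 for FOSB and -0.58 for PLK3. Other genes that rose less in Acis were PLK5, a polo-like kinase paralog (-2.27), MYLIP (-1.76), C18orf32 (-0.89), ADAMTSL4-AS1 (-0.80), RHOV (-0.75) and OSGIN1 (-0.73). The differences of ADAMTSL4-AS1, RHOV and OSGIN1 were lost with DESeq2 and when 1 of 3 to 5 libraries was left out. PLK5 had 36.1, 27.7 and 22.8 normalized counts in untreated and 48.0, 51.2 and 54.0 in treated Acis cells, a log2 change of 0.81 against 3.08 in A2780.

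TBR1 had a difference of -1.65, and ENSG00000279602, which fell by 0.76 in Acis and rose by 1.04 in A2780, of -1.80. It had 53.1, 53.3 and 59.3 normalized counts in untreated and 35.5, 31.5 and 30.4 in treated Acis cells. The falls of 3 genes went further in Acis, with differences of -0.93 for NR6A1, -0.46 for H3C8 and -0.41 for H3C11. The difference of H3C11 was lost with DESeq2, without a filter on low counts, with the replicate block and without control replicate 1 or 2 or cisplatin replicate 2 or 3 (-0.31 without the last), and that of H3C8 with DESeq2 and without cisplatin replicate 3 (-0.38).

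More positive effects came from larger rises in Acis, with 1.20 for PHLDA1, 0.55 for ADM, 0.54 for NFKBIZ and 0.24 for CCNL1, and from smaller falls in abundant long genes, with 0.29 for ASH1L, 0.20 for MDN1 and 0.15 for KMT2C, which was not called by DESeq2 or with total counts. SATB1-AS1, an antisense lncRNA, rose by 0.43 in Acis and fell by 0.81 in A2780 (difference 1.23). TBCE, a tubulin folding cofactor, fell by 0.44 and 2.03 (difference 1.59), and ATXN7, a subunit of the SAGA complex, by 0.43 and 1.83 (difference 1.40). ENSG00000281195 had a difference of 1.24 and ENSG00000284946 of 1.21. TBCE, SATB1-AS1 and the 3 genes without a symbol overlap another tested gene on the same strand, so reads can be shared with it. TBCE had 60.5, 81.0 and 93.5 normalized counts in untreated and 56.6, 61.0 and 54.0 in treated Acis cells, which overlap, and its change in Acis was not called by DESeq2, with total counts as library size, or without control replicate 2 or 3 or cisplatin replicate 1 or 3. That of ATXN7 was not called by DESeq2, with total counts, or without control replicate 2 or 3 or cisplatin replicate 1, and it was -0.27 without the last. SATB1-AS1 lost its call in Acis with DESeq2 and without control replicate 1 or 3 or cisplatin replicate 3.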

How the results depend on the processing

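No gene called in Acis changed direction under an alternative that also called it, and of 230 genes named by the rule or given as changed, 206 were called, of which 157 kept call and direction in every setting that tested them. DESeq2 called 533 genes higher (143 by 2-fold) and gave 1100 more positive and 298 more negative effects in Acis than in A2780. Total counts as library size gave 2346 higher genes and 1572 more negative effects. Without a filter on low counts 110 genes were lower by 2-fold, and with a mean of at least 50 counts 32 were higher and 14 lower by 2-fold and 1427 effects were more negative. With the closest replicates merged, 795 genes were higher. Leaving out 1 Acis library gave 1036 to 1358 higher and 1563 to 1891 lower genes (217 to 281 and 54 to 76 by 2-fold), and 1713 to 2195 more positive and 525 to 926 more negative effects, with 525 without control replicate 1 and 550 without cisplatin replicate 2. With replicate numbers as a block, 1433 genes were higher and 1927 lower (252 and 58 by 2-fold), with 2058 more positive and 802 more negative effects, but the numbers do not pair the samples, as deviations of same-numbered libraries correlated at -0.0918, 0.0278 and -0.205. Of the 31 named differences between lines, 23 were called in every setting that tested them, and DESeq2 did not call ADM, ADAMTSL4-AS1, H3C11, H3C8, KMT2C, RHOV and OSGIN1. Within 200 bp of a peak in the control and cisplatin lists lay 69.2% and 72.3% of the starts of upregulated, 64.6% and 67.1% of downregulated and 63.4% and 66.2% of all tested protein-coding genes, and with a -log10 q of at least 20 the cisplatin list held 73.6%, 66.9% and 66.0%. Low counts limit the lncRNA and short RNA genes most, and DESeq2 called 117 lncRNA genes higher.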
